A study of Mus musculus with 8 samples.

Results

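The 30 genes described here encode enzymes and regulators of sterol and fatty acid synthesis. They were followed in mouse T-cell progenitors grown from bone marrow, in which both Stat5 genes had been targeted by CRISPR. The genes were taken by symbol from a fixed list: 8 genes of the mevalonate and isoprenoid steps, 11 of the squalene and sterol steps, 5 regulators of the SREBP transcription factors, 5 of fatty acid synthesis, and 1 sterol carrier. All 30 of 30 listed genes were found among the 24506 symbols of the count table, and all 30 were among the 13775 genes with enough reads to test. The list does not rest on a measured value, but it was drawn up with earlier results of these data known.

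The study asked which genes respond to STAT5, the transcription factor pair downstream of the IL-7 receptor, before and after progenitors commit to the T lineage. Multipotent bone marrow progenitors came from C57BL/6 background mice (labelled B6) with Cas9, a Bcl2 transgene and a Bcl11b-mCherry reporter. All 8 libraries share this genotype, and neither the promoter of the Bcl2 transgene nor the number of animals per library is given. After a night with IL-7, Flt3 ligand and SCF, progenitors received retroviral guides. They were then kept for 6 days on OP9-DLL1 stromal cells, which carry a Notch ligand, and the medium held 10 ng/ml of both IL-7 and Flt3 ligand. Lineage-negative, infected, CD25+ cells were sorted as mCherry-negative (the early gate, before commitment) or mCherry-positive (the late gate, after commitment). Within each gate 2 libraries carried control guides and 2 carried 3 guides against Stat5a plus 3 against Stat5b, called sgStat5 here. The targets of the control guides are not given. The series text names the late gate as mCherry-positive but also as reporter-negative. Bcl11b, the gene behind the reporter, stood at 45.6 to 132 CPM (reads counted in a gene, scaled to the size of the library) in the 4 early libraries and at 219 to 797 CPM in the 4 late ones.

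Cells build cholesterol from acetyl-CoA through mevalonate, isoprenoids, squalene and lanosterol, and the isoprenoids also supply protein prenylation and ubiquinone. The transcription factor made from Srebf2 drives most of these genes when membrane sterol is low, and that made from Srebf1 leans towards fatty acid synthesis. SCAP escorts both precursors out of the endoplasmic reticulum for cleavage, and the INSIG proteins hold SCAP back when sterol is plentiful. Dividing lymphocytes use both pathways to make membrane.

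Start regions of 5 genes are shown because their genes represent the pathway: Hmgcs1 as the entry to mevalonate synthesis, and Idi1, Lss, Hsd17b7 and Fasn as genes called in the tests below. Each is the 250 bases before the RefSeq start site, on mouse build GRCm38.p6, written 5′ to 3′ on the gene's strand. Capitals mark the CCAAT box, as CCAAT or its reverse complement, and the sterol regulatory element TCACNCCAC.
Hmgcs1, chr13:119690101-119690350, plus strand: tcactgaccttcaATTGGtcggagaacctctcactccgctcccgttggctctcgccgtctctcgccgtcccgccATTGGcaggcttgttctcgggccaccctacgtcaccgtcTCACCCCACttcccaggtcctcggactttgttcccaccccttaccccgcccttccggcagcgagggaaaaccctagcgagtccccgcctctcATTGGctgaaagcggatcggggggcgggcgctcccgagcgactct
Idi1, chr13:8885356-8885605, plus strand: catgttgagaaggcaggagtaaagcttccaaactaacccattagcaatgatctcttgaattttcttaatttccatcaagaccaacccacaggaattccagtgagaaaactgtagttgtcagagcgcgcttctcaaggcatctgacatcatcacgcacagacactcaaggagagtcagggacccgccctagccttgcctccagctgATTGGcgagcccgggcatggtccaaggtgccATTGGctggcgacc
Lss, chr10:76531355-76531604, plus strand: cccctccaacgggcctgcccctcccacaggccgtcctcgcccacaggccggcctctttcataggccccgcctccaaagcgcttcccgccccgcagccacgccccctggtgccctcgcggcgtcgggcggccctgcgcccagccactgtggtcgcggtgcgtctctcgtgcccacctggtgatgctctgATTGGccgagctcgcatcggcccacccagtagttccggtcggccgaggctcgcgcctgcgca
Hsd17b7, chr1:169969206-169969455, minus strand: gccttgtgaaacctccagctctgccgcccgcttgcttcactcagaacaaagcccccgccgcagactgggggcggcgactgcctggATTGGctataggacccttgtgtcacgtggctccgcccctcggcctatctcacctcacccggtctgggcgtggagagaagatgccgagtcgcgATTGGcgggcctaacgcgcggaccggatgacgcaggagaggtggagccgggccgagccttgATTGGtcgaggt
Fasn, chr11:120824548-120824797, minus strand: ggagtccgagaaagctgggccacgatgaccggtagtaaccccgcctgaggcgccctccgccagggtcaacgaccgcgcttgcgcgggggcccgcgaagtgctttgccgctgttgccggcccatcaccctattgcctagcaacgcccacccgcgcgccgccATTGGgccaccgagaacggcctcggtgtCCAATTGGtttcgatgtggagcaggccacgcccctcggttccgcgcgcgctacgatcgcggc
RefSeq start regions were matched for 24 of the 30 genes, and those of Fdps, Fdft1, Sqle, Scd1, Scd2 and Stard4 were not. Some genes have several start regions, and a gene was counted where any of them held a match. A CCAAT box, on either strand, was found for 20 of the 24 genes (83.3%). The share was 37.5% of 27025 genes with a start region and 40.4% of the 10461 tested genes with one. The GC box GGGCGG lay in 19 of 24 (79.2%), against 35.4% of all genes and 61.8% of tested genes. CACGTG, the E-box that SREBP proteins can also bind, lay in 5 (20.8%), against 6.86% and 9.66%. TCACNCCAC lay only in the Hmgcs1 region, 1 of 24 (4.17%), against 1.22% and 1.21%. The STAT motif TTCNNNGAA lay in the regions of Ebp and Ggps1, 2 of 24 (8.33%), against 8.13% and 7.41%. In the Fasn region a CCAAT and an ATTGG overlap, which gives the capital run CCAATTGG. These matches describe letters and do not show binding.

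Total counts ran from 22146490 to 31209177 per library, and the lowest count of any of the 30 genes in any library was 243. Stat5a stood at 258 and 257 CPM in the early control libraries and at 106 and 105 in the early sgStat5 libraries, and at 258 and 239 against 116 and 108 in the late gate. Stat5b stood at 256 and 249 against 144 and 133 CPM early, and at 280 and 255 against 154 and 135 late. Both fell in both gates by edgeR's quasi-likelihood test with Benjamini-Hochberg adjustment (adjusted p from 0.00451 to 0.0280), so transcripts of both genes were reduced but present. Within every group values are given with replicate 1 first, and same-numbered libraries of different groups deviated together, so each comparison was also fitted with the replicate number as a block. Nothing in the labels says whether the 2 replicates of a group came from separate animals or cultures, so p-values measure the spread between these samples, which may be technical. In bulk samples, fewer cells of a type and less RNA per cell cannot be told apart.

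Levels were compared between genes in FPKM, which divides by transcript length. Scd2, a stearoyl-CoA desaturase that makes monounsaturated fatty acids, was the highest at a mean of 149 FPKM over the 8 libraries (range 130 to 162). Next came Fdps, which makes farnesyl diphosphate, at a mean of 80.3 FPKM, then Idi1 at 52.6, Hmgcs1 at 49.8, Srebf2 at 48.2, Acat2 at 37.5, Cyp51 at 37.1 and Fasn at 35.1. At the other end stood Hsd17b7 at 3.58 FPKM, Ggps1 at 4.08, Insig2 at 4.16, Mvk at 6.25 and Tm7sf2 at 6.30. The median tested gene stood at 6.68 FPKM, 25 of the 30 genes lay above it, and 5 lay in the top 10%. Between paralogs, Scd2 was 13.0 to 23.7 times as high as Scd1, Srebf2 was 2.15 to 2.87 times as high as Srebf1, and Insig1 was 4.20 to 6.60 times as high as Insig2 in every library. Scd1 and Scd2 lie near each other on chromosome 19 and are close copies, so reads could be shared between them. For Hmgcs1, Mvk, Srebf1, Insig2, Scap and Ggps1 the FPKM table gives another transcript of the gene than the count table does.

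**Figure D1:**
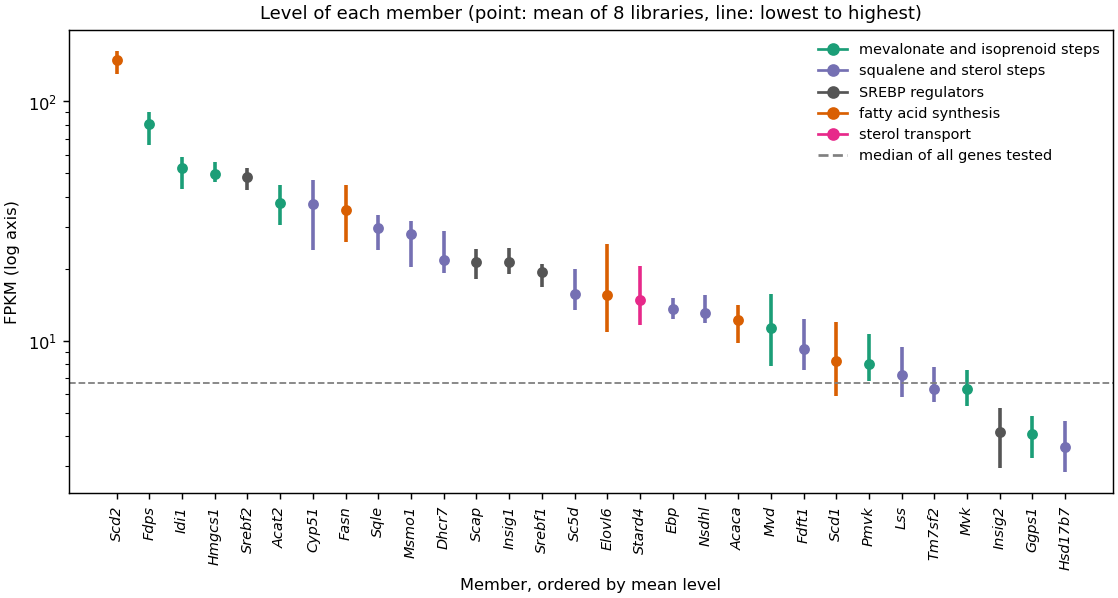
Level of each of the 30 genes in FPKM on a log axis, with a point at the mean of the 8 libraries. Lines run from the lowest to the highest library, colour gives the pathway step, and the dashed line is the median of all genes tested. Scd2 sits at the top with 130 to 162 FPKM, and Elovl6 has the widest spread between libraries, with its highest value 2.35 times its lowest.

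In the late gate, genes of cholesterol synthesis, fatty acid synthesis and sterol transport fell in sgStat5 cells in the edgeR fit with the replicate block and not in the fit without it. None of the 30 genes passed edgeR without the block (1.71% of the 13775 genes did), and 11 of the 30 had an unadjusted p under 0.05, as did 1713 of all genes. With the replicate block 7 of 30 fell and none rose, against 4.49% of genes that fell and 3.72% that rose: Idi1, Sqle, Lss, Hsd17b7, Fasn, Scd1 and Stard4. DESeq2, without a block, called 4 of these lower, Fasn, Idi1, Lss and Scd1, against 2.46% of genes. Without the block the median log2 fold change of the 30 genes was −0.24, against −0.02 over all genes tested. It lay below 0 for 29 of 30 genes (52.3% of all genes), and for 21 of 30 the higher sgStat5 library was under the lower control (20.8% of all genes). No gene of the 30 had both sgStat5 libraries above both controls (18.1% of all genes).

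**Figure D2:**
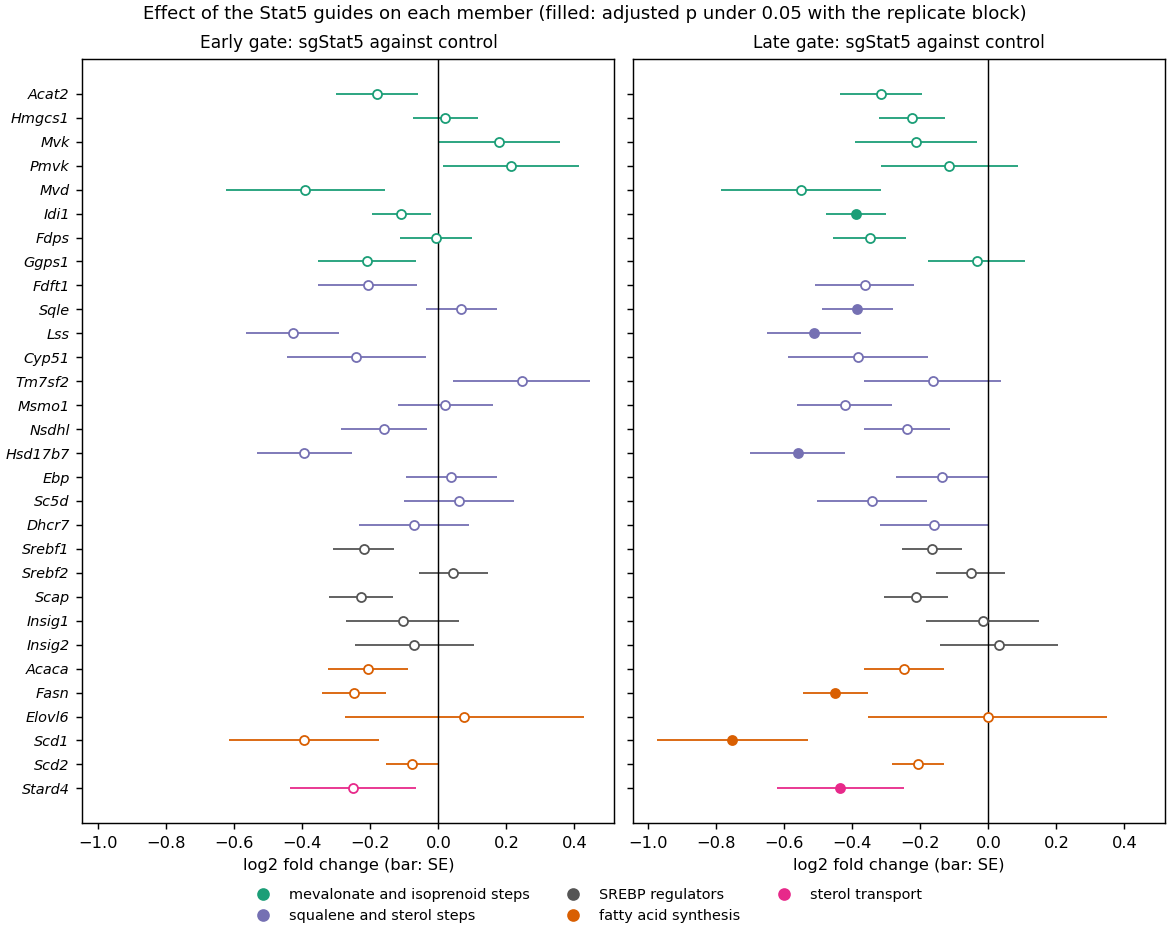
The log2 fold change of sgStat5 against control for each gene in the early gate (left) and the late gate (right), from the edgeR fit without the block, with bars of 1 standard error and filled points where the adjusted p with the block is under 0.05. In the late gate 29 of 30 points lie left of 0 and 7 are filled, and in the early gate none is filled.

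Fasn makes palmitate from acetyl-CoA and malonyl-CoA in one large protein, encoded on chromosome 11 from 120805958 to 120824547 (mm10, minus strand). Late control libraries gave 502 and 465 CPM and late sgStat5 libraries 360 and 347 CPM. The groups did not overlap, and the sgStat5 mean was 73.2% of the control mean. With the block the log2 fold change was −0.45 (SE 0.06, edgeR adjusted p = 0.00279), and without it the adjusted p was 0.0824. Its call with the block was the only one of the 7 to hold when each of the 8 libraries was left out in turn. Scd1, the less abundant desaturase (chromosome 19, 44394450 to 44407709), had the largest fold change, with 80.6 and 54.3 CPM in control and 41.7 and 38.3 in sgStat5. The sgStat5 mean was 59.3% of control, and the log2 fold change with the block was −0.73 (SE 0.15, edgeR adjusted p = 0.0161, or 0.223 without it). Scd2 stood at 1184 and 1095 CPM against 949 and 1024, with no overlap, a log2 fold change of −0.21 (SE 0.06) and an adjusted p of 0.0916 with the edgeR block. Acaca, which makes malonyl-CoA, stood at 163 and 143 CPM against 139 and 119, and also missed the threshold with the block (−0.25, SE 0.07, edgeR adjusted p = 0.0736). Elovl6, which lengthens palmitate, did not share the pattern: 212 and 97.7 CPM in control and 187 and 122 in sgStat5 overlapped widely. Its log2 fold change was 0.04 (SE 0.19) with the block and −0.0017 (SE 0.35) without it.

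Among the mevalonate and isoprenoid genes the median log2 fold change was −0.27 and 8 of 8 values lay below 0. Idi1, which interconverts the basic isoprenoid units (chromosome 13, 8885606 to 8892396), stood at 232 and 208 CPM in control and 169 and 166 in sgStat5. The sgStat5 mean was 76.3% of control, and the gene fell with the block (−0.39, SE 0.08, edgeR adjusted p = 0.0182, or 0.104 without it). Mvd, which decarboxylates mevalonate diphosphate, stood at 38.3 and 27.9 CPM in control and 26.5 and 18.6 in sgStat5. Its libraries did not overlap, its log2 fold change of −0.55 (SE 0.15) was larger than that of Idi1, and its edgeR adjusted p with the block was 0.0511. Hmgcs1, which condenses acetoacetyl-CoA with acetyl-CoA, stood at 274 and 239 CPM against 217 and 222, a log2 fold change of −0.22 (SE 0.09, edgeR adjusted p = 0.166 with the block). Acat2, Mvk, Pmvk, Fdps and Ggps1 had log2 fold changes from −0.35 (Fdps) to −0.03 (Ggps1), and the Mvk and Ggps1 libraries overlapped.

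The squalene and sterol genes had the lowest median of the steps that hold several genes, −0.36, with 11 of 11 values below 0. Sqle, the squalene epoxidase and a rate-setting step (chromosome 15, 59315092 to 59331193), stood at 128 and 110.3 CPM in control and 87.8 and 94.5 in sgStat5. It fell with the block (−0.38, SE 0.09, edgeR adjusted p = 0.0390, or 0.177 without it). Lss, which closes the rings to make lanosterol (chromosome 10, 76531605 to 76557139), stood at 74.5 and 67.0 CPM against 49.3 and 49.9, a mean of 70.1% of control. It fell with the block (−0.51, SE 0.12, edgeR adjusted p = 0.0325, or 0.173 without it). Hsd17b7, a ketoreductase of lanosterol demethylation (chromosome 1, 169949537 to 169969205), stood at 29.4 and 26.2 CPM against 17.9 and 19.8, or 67.8% of control, and also fell with the block (−0.56, SE 0.14, edgeR adjusted p = 0.0456, or 0.138 without it). Msmo1, an oxidase of the same demethylation, stood at 80.3 and 70.9 CPM against 49.6 and 63.1 (−0.42, SE 0.13, edgeR adjusted p = 0.0801 with the block). Fdft1, Cyp51, Tm7sf2, Nsdhl, Ebp, Sc5d and Dhcr7 ranged from −0.40 (Cyp51) to −0.13 (Ebp) with the block, and the libraries of Cyp51, Tm7sf2 and Dhcr7 overlapped. Lss shares its locus with 4930483K19Rik on the opposite strand, and Fdft1 shares part of its own with Ctsb. The library kit does not mark strand, so reads of such pairs cannot be told apart. 4930483K19Rik had 71 to 162 counts per library, while Ctsb had 2137 to 3743 beside 927 to 1662 for Fdft1. Tm7sf2, with 288 to 417 counts, overlaps Vps51 on the same strand, which had 748 to 1040. The part of these overlaps in the values was not tested.

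Stard4, which carries cholesterol between membranes, stood at 153 and 115 CPM with control guides and at 114 and 84.4 with sgStat5. The sgStat5 library was the lower one within each replicate pair, and the gene fell with the block (−0.44, SE 0.09, edgeR adjusted p = 0.0210, or 0.405 without it). The 5 regulators had a median of −0.05 and none was called in either fit. Srebf2 stood at 336 and 293 CPM in control and 309 and 298 in sgStat5 (−0.05, SE 0.09 with the block). Srebf1 stood at 126 and 121 CPM against 114 and 106 (−0.17, SE 0.09), and Scap at 125 and 124 against 114 and 101 (−0.22, SE 0.08), each with no overlap and an edgeR adjusted p with the block of 0.302 and 0.130. Srebf1, with 2216 to 3844 counts per library, lies across from Rai1 on the opposite strand, which had 3978 to 5249. Insig1 stood at 88.3 and 70.9 CPM against 86.3 and 71.0, and Insig2 at 17.8 and 15.9 against 17.9 and 16.6. For Insig1 the log2 fold change with the block was −0.02 (SE 0.10) and for Insig2 it was 0.03 (SE 0.15). RNA levels do not show how much SREBP protein was cleaved.

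**Figure D3:**
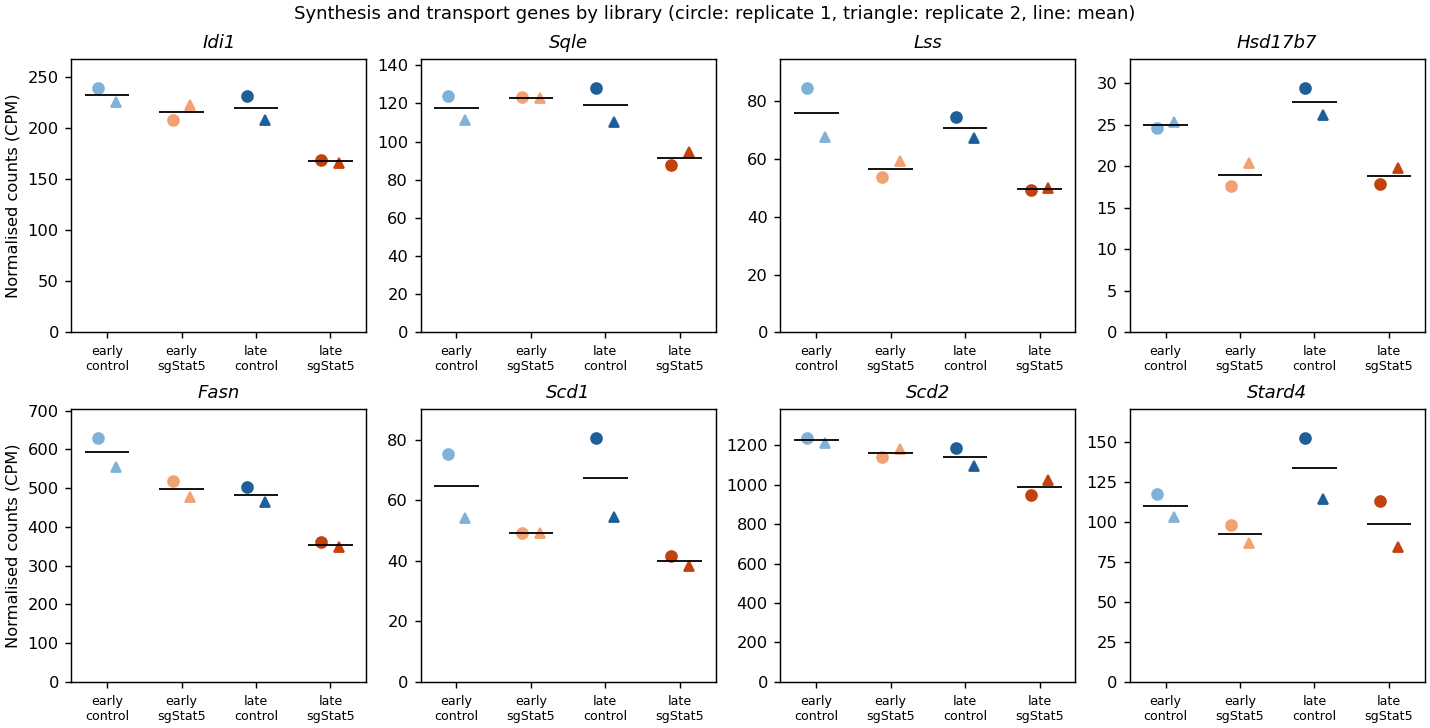
CPM in each library for 8 of the genes called with the replicate block in any comparison, with circles for replicate 1, triangles for replicate 2 and lines for group means. For Fasn both late sgStat5 libraries, at 360 and 347 CPM, lie under all others, and the Scd1 controls range from 54.1 to 80.6 CPM.

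**Figure D4:**
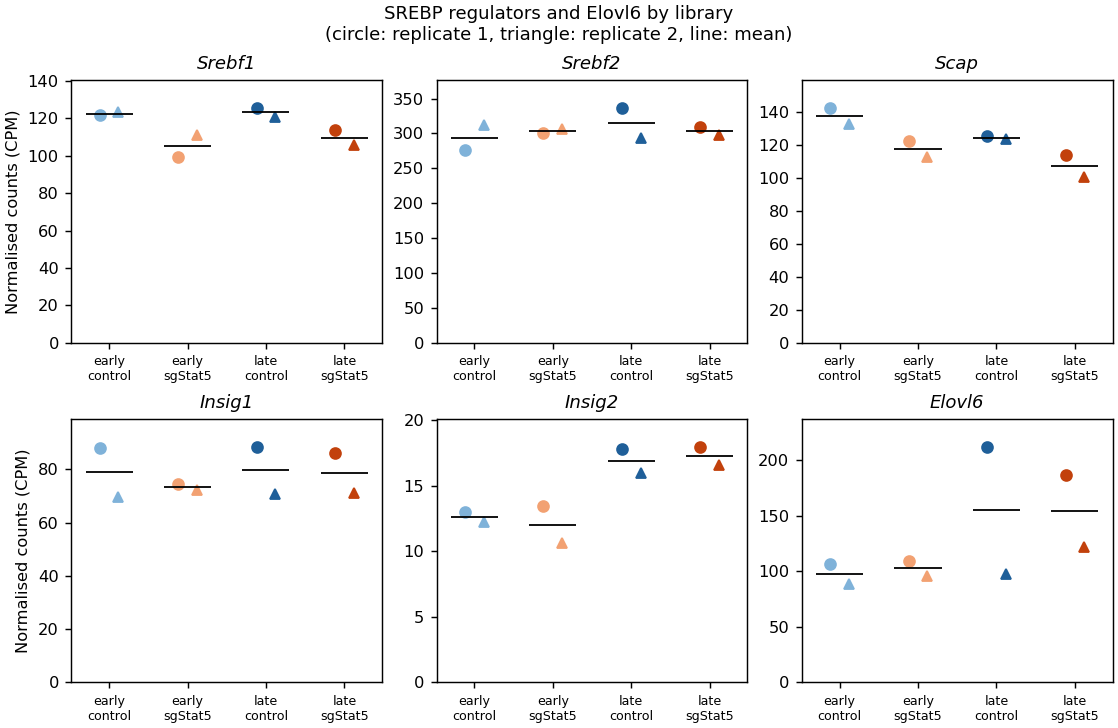
CPM in each library for the SREBP regulators and Elovl6, with circles for replicate 1, triangles for replicate 2 and lines for group means. Srebf2 lies between 276 and 336 CPM in all 8 libraries, and Elovl6 reaches 212 CPM in late control replicate 1 while late control replicate 2 is at 97.7.

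The calls with the block rested on few libraries. Without late control replicate 1, or without late sgStat5 replicate 1, Fasn was the only gene of the 30 still called, against 4 genes without late control replicate 2 and 3 without late sgStat5 replicate 2. Idi1 and Stard4 were lost without late control replicate 1 or either late sgStat5 library, Scd1 without replicate 1 of either late group, and Lss without any of the 4 late libraries. Sqle and Hsd17b7 were lost without any late library or either early control library. In the late gate the marker sums of cycling cells and of NK and innate lymphoid cells lay apart between the guides. Those of the other lists given here overlapped. Summed markers of cycling cells (12 genes) were 5233 to 5460 CPM in late control and 4716 to 4907 in late sgStat5. None of these 12 genes was called in that comparison. Without the block, log2 fold changes lay below 0 for 12 of 12, with a median of −0.15, beside −0.24 for the 30 genes. Markers of NK and innate lymphoid cells (10 genes) summed to 945 and 1601 CPM in late control and to 1782 and 2091 with sgStat5, and 2 of them rose and 1 fell with the block. T-cell progenitor markers (12 genes) summed to 9119 and 6925 CPM against 8054 and 6672, and 4 rose and 3 fell with the block. Myeloid markers (12 genes) summed to 17.3 and 21.7 CPM against 19.6 and 33.0, with none called. The part of these lists in the result was not tested. OP9 stroma can form adipocytes, whose markers (12 genes, summed) were 22.8 to 33.5 CPM in late control and 18.2 to 25.9 in late sgStat5. Cidec and Lep were at 0 in every library, and Adipoq and Plin1 did not exceed 0.79 and 0.04 CPM. Fabp4 and Lpl, of the same list, ran from 0.18 to 8.23 and from 0 to 9.68 CPM over the 8 libraries. Fabp4 stood at 2.07 and 8.23 CPM in late control and at 2.12 and 5.74 in late sgStat5. Lpl stood at 1.88 and 9.68 CPM against 4.42 and 8.89. The stroma list (14 genes) summed to 707 to 1523 CPM in late control and 502 to 1045 in late sgStat5, of which Igfbp4 gave 456 and 816 against 228 and 413 CPM. Of 13 tested genes of this list, 2 fell with the block and 1 fell without it, and none rose. In early sgStat5 replicate 1 Igfbp4 stood at 440 CPM while Col1a1, Col3a1 and Fn1 were at 0. The sum of this list therefore cannot be read as an amount of stroma. The stromal collagen Col1a1 stood at 28.9 and 83.0 CPM in late control and at 29.2 and 76.3 in late sgStat5, so it differed between replicates more than between guides.

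In the early gate no gene of the 30 was called by edgeR without the block (0.269% of genes were), with the block (2.33%) or by DESeq2 (1.79%). Without the block 5 of 30 had an unadjusted p under 0.05, as did 887 of all genes. The median log2 fold change of the 30 genes was −0.11, against −0.0001 over all genes, and −0.17 without early control replicate 2. It lay below 0 for 20 of 30 (50.0% of genes), and 15 of 30 had both sgStat5 libraries below both controls (19.4% of genes), while only Tm7sf2 had both above (18.7% of genes). In the fit without the block the largest fold changes belonged to Lss, Scd1, Hsd17b7, Mvd and Stard4, none of them called.

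Lss stood at 84.3 and 67.4 CPM in early control and at 53.6 and 59.1 in early sgStat5, with no overlap (−0.42, SE 0.12 and edgeR adjusted p = 0.149 with the block). Scd1 stood at 75.4 and 54.1 CPM against 49.1 and 49.3 (−0.37, SE 0.14), and Hsd17b7 at 24.6 and 25.3 against 17.6 and 20.4 (−0.40, SE 0.14). Mvd stood at 34.9 and 26.7 CPM against 23.8 and 23.2 (−0.37, SE 0.15), and Stard4 at 117 and 103 against 98.2 and 87.2 (−0.25, SE 0.09). Fasn, at 629 and 556 CPM against 519 and 478, had the lowest adjusted p of the 30 with the block (−0.25, SE 0.06, edgeR adjusted p = 0.102). Sqle was near its control level, with overlap, at 124 and 111 CPM against 123 and 123. Idi1 stood at 239 and 226 CPM against 209 and 222, with no overlap and a mean of 92.7% of control (−0.11, SE 0.08 with the block). Acaca stood at 179 and 167 CPM against 159 and 141, and Scd2 at 1237 and 1213 against 1139 and 1183. Hmgcs1 stood at 255 and 238 CPM against 240.4 and 259, with overlap and a log2 fold change of 0.02 (SE 0.09).

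Among early regulators, Srebf1 stood at 122 and 124 CPM in control and 99.6 and 111 in sgStat5, and Scap at 142 and 133 against 122 and 112. Both sets of libraries were apart, with log2 fold changes with the block of −0.22 (SE 0.09) and −0.23 (SE 0.08) and edgeR adjusted p of 0.324 and 0.228. Srebf2 stood at 276 and 312 CPM against 300.2 and 306, Insig1 at 88.2 and 69.7 against 74.7 and 72.1, and Insig2 at 13.0 and 12.3 against 13.4 and 10.6, all overlapping. In these early libraries the stromal Col1a1 stood at 7.99 and 50.3 CPM in control and at 0 and 36.2 in sgStat5, and its part in these values was not tested.

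The difference between the guide effects of the 2 gates was tested directly, as late minus early. No gene of the 30, and none of all genes (0%), passed edgeR with or without the block, and DESeq2 called 2 genes (0.0145%), neither of the 30. At an unadjusted p under 0.05 edgeR without the block gave 302 genes, 1 of them among the 30. That was Sqle, with a log2 difference of −0.45 (SE 0.13, edgeR adjusted p = 0.594 with the block). The next largest were Msmo1 (−0.44, SE 0.18), Tm7sf2 (−0.41, SE 0.27), Sc5d (−0.40, SE 0.16) and Mvk (−0.38, SE 0.24). Msmo1 stood at 77.1 and 71.3 CPM in early control and 73.4 and 77.0 in early sgStat5, which overlap, before the lower late values given above. Tm7sf2, a sterol reductase, had early values of 11.8 and 11.3 CPM with control guides and 12.9 and 14.4 with sgStat5, and late values of 16.0 and 11.5 against 12.8 and 11.7. For Sc5d, a sterol desaturase, early values were 49.3 and 44.6 CPM against 49.6 and 48.3, and late values 62.7 and 46.9 against 45.8 and 40.7. The mevalonate kinase gene Mvk gave 13.5 and 15.2 CPM against 14.9 and 17.6 early, and 13.7 and 16.3 against 13.8 and 12.2 late. The late groups overlapped for Tm7sf2 and Mvk and did not for Sc5d. The median over the 30 genes was −0.16, against −0.02 over all genes, and 25 of 30 lay below 0 (53.3% of genes). This median was −0.0748 without late control replicate 1 and −0.24 without late control replicate 2. The late and early effects are thus not shown to differ for any of these genes. For Fasn the difference was −0.20 (SE 0.09) and for Scd1 −0.36 (SE 0.20). The 12 cycling markers given above had a median difference of −0.19 without the block, with 12 of 12 below 0 and none called. Their part in the values of the 30 genes was not tested.

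Across the gates, Fasn was lower in late than in early cells under both kinds of guide. In control cells it was the only call among the 30, at 629 and 556 CPM early and 502 and 465 late. The late mean was 81.6% of the early one (−0.29, SE 0.06, edgeR adjusted p = 0.0216 with the block, or 0.266 without it). The block called 4.30% of all genes lower and 10.9% in either direction, and edgeR without it called 0.0145%. DESeq2 called none of the 30 (4.20% of genes). The control call was lost without any 1 of the 4 control libraries. The median of the 30 genes was 0.06, against 0.03 over all genes, and −0.021 without late control replicate 1. Both late control libraries lay below both early ones for 6 of 30 genes (24.2% of genes): Fasn, Acaca, Scd2, Acat2, Pmvk and Scap. They lay above for 4 (24.6% of genes): Fdft1, Hsd17b7, Dhcr7 and Insig2. Neither count exceeds the share over all genes.

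In sgStat5 cells 5 of 30 fell from early to late with the block (11.5% of genes), namely Fasn, Idi1, Sqle, Msmo1 and Scd2, and 1 rose, Insig2 (11.3% of genes). In either direction the block called 6 of 30 (20%), against 22.8% of all genes, so the 30 genes held no larger share of calls than genes in general. Without the block edgeR called none of the 30 (0.973% of genes), and DESeq2 called 3 lower, Fasn, Idi1 and Sqle (5.81% of genes). Fasn went from 519 and 478 CPM to 360 and 347, or 70.9% of the early mean (−0.49, SE 0.06, edgeR adjusted p = 0.00130 with the block), and held this call without any 1 of the 8 libraries. Sqle went from 123 and 123 CPM to 87.8 and 94.5 (−0.43, SE 0.09), Idi1 from 209 and 222 to 169 and 166 (−0.36, SE 0.08), and Scd2 from 1139 and 1183 to 949 and 1024 (−0.23, SE 0.06). Msmo1 had an edgeR adjusted p of 0.0446 with the block (−0.42, SE 0.13). These late sgStat5 libraries also enter the late guide comparison, so the lower values of Fasn, Idi1 and Sqle in both are not separate evidence. Insig2, whose protein retains SCAP, stood at 13.4 and 10.6 CPM early and 17.9 and 16.6 late under sgStat5 (0.53, SE 0.16, edgeR adjusted p = 0.0401 with the block). This last call was lost without any 1 of the 8 libraries. In control cells the same gene stood at 13.0 and 12.3 CPM early and 17.8 and 15.9 late (0.42, SE 0.16, edgeR adjusted p = 0.120 with the block). The calls of Idi1, Sqle, Msmo1 and Scd2 were each lost without 3 to 5 of the 8 libraries. Leaving out late sgStat5 replicate 1 ended all 4, and only Fasn was then called among the 30, while 2 genes were called without either early sgStat5 library.

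Many marker genes differed between the gates as well. With control guides, cycling markers summed to 3827 and 4569 CPM early and to 5233 and 5460 late, and 6 of 12 rose with the block. With sgStat5 they summed to 4010 and 4352 CPM early and to 4907 and 4716 late, where 3 rose and 2 fell. Myeloid markers went from 58.7 and 55.5 CPM to 17.3 and 21.7 with control guides, and from 103 and 84.5 CPM to 19.6 and 33.0 with sgStat5, and 4 of 11 tested fell and 1 rose under each. The stroma list summed to 554 and 892 CPM in early sgStat5 cells and to 502 and 1045 in late ones. There 4 of 13 tested rose and 1 fell with the block, and none of the 13 was called with control guides. Igfbp4 gave 440 and 533 CPM of the early sgStat5 sums and 228 and 413 of the late ones. Col1a1 went the other way, from 0 and 36.2 CPM to 29.2 and 76.3. The sums thus do not follow the collagen and cannot be read as an amount of stroma. Of the T-cell progenitor markers 7 of 12 rose in both, while 1 fell with control guides and 2 with sgStat5. Of 10 NK and innate lymphoid markers 4 fell and none rose with control guides, and 3 fell and 1 rose with sgStat5. The part of these lists in the gate differences was not tested.

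**Figure D5:**
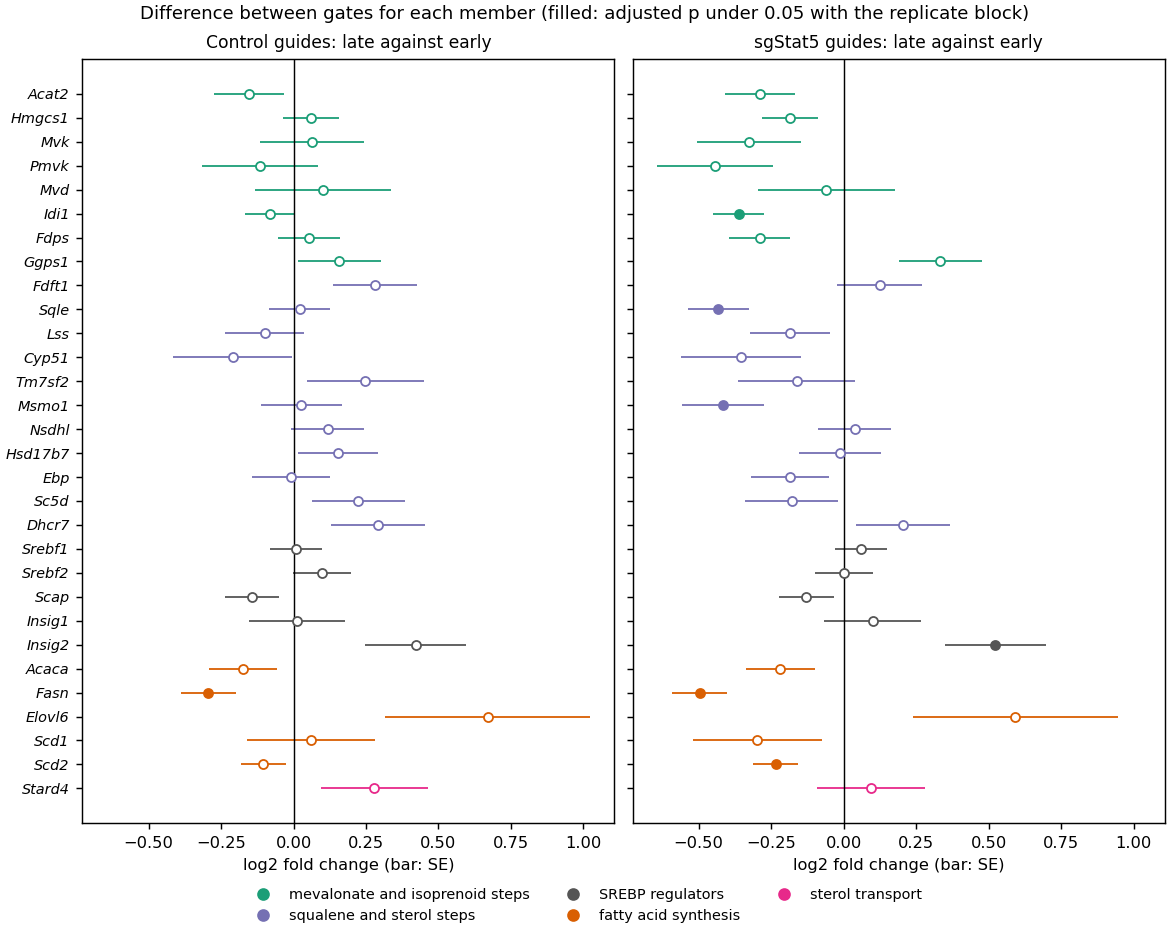
The log2 fold change of late against early cells for each gene under control guides (left) and sgStat5 guides (right), from the edgeR fit without the block, with bars of 1 standard error and filled points where the adjusted p with the block is under 0.05. Fasn is filled on both sides, and Elovl6 has the highest value and the widest bars.

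Elovl6 varied most among the 30 genes. Early cells gave 106 and 88.4 CPM with control guides and 109 and 95.6 CPM with sgStat5. Late cells gave 212 and 97.7 CPM with control guides and 187 and 122 CPM with sgStat5. Replicate 1 was higher in all 4 groups, and late control replicate 1 was the highest of the 8 libraries. Its late against early change was 0.59 (SE 0.19, edgeR adjusted p = 0.0744) in control and 0.55 (SE 0.19, adjusted p = 0.0616) in sgStat5 cells with the block. Replicate 1 was higher in all 4 groups for 9 of the 30 genes (Mvd, Sc5d, Scap, Insig1, Insig2, Acaca, Fasn, Elovl6 and Stard4), as for 19.3% of all genes, and replicate 2 for 1, Pmvk (19.5% of genes). Other measures differ between the replicates too. Cd3e, a T-cell receptor complex gene, stood at 237 CPM in late control replicate 1 and 29.7 in replicate 2, and Bcl11b at 542 and 219. The part of these differences in the Elovl6 values was not tested.

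Genes around the 2 pathways were read from 5 lists with 74 names, of which 73 were found. In the late guide comparison none passed edgeR without the block. With it 5 of 70 tested genes passed (7.14%), against 8.22% of all genes in either direction, so the lists held no larger share of calls than genes in general. Of these, 2 of 22 tested genes of fatty acid supply, elongation and desaturation fell: Fads2, a desaturase of polyunsaturated fatty acids (−0.44, SE 0.08, edgeR adjusted p = 0.00723), and Acsl4, which activates such fatty acids (−0.39, SE 0.09). Tmem97, a sterol-regulated membrane protein, fell as 1 of 13 sterol uptake, transport and esterification genes (−0.59, SE 0.13). Abcg1, a cholesterol exporter, fell as 1 of 10 efflux and LXR response genes (−0.44, SE 0.10), though its libraries overlapped. Rnf145, a sterol-responsive ubiquitin ligase, rose as 1 of 13 SREBP processing and sensing genes (0.31, SE 0.08), and 0 of 12 isoprenoid branch genes passed. Of these 5 genes DESeq2, without a block, called only Rnf145 (DESeq2 adjusted p = 0.0257), against 4.57% of all genes. List medians were −0.18, 0.02, 0.03, −0.13 and −0.09 in that order. Each of these 5 calls was lost without 2 to 8 of the 8 libraries, and always without replicate 1 of late control or of late sgStat5. In the early gate none of the 5 lists held a call.

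Between gates in sgStat5 cells 21 of 70 companion genes passed with the block (30%), against 22.8% of all genes, and in control cells 6 of 70 (8.57%), against 10.9% of all genes. In sgStat5 cells 8 of 22 fatty acid supply genes fell and 2 rose, beside 11.5% and 11.3% of all genes. Lower were Elovl1 (−0.73, SE 0.12), Hsd17b12 (−0.57, SE 0.11), the citrate carrier Slc25a1 (−0.46, SE 0.09), Acsl3 (−0.40, SE 0.12), Hacd3 (−0.36, SE 0.09) and Tecr (−0.34, SE 0.09), of which Elovl1, Hsd17b12, Hacd3 and Tecr serve the elongation cycle. Higher were Agpat3, an acyltransferase of phospholipid synthesis (1.21, SE 0.17), and Elovl5 (0.39, SE 0.07). Lipa, the lysosomal lipase that frees cholesterol from its esters, rose in sgStat5 cells (1.50, SE 0.16) and in control cells (1.25, SE 0.16), and both calls held without any 1 of the 8 libraries. Npc1, which exports that cholesterol from the lysosome, rose in both as well (0.58, SE 0.12, and 0.63, SE 0.12), and each call was lost without replicate 1 of either gate. In sgStat5 cells Soat1, which esterifies cholesterol, rose (0.59, SE 0.15) and Tmem97 fell (−0.57, SE 0.13). Among genes of SREBP processing and sterol sensing, Erlin1 (−0.48, SE 0.10) and the SREBP protease gene Mbtps2 (−0.38, SE 0.10) fell and Rnf145 rose (0.28, SE 0.08). Pdss1 (−0.86, SE 0.22), Nus1 (−0.47, SE 0.09) and Rabggtb (−0.45, SE 0.11) fell among 12 isoprenoid branch genes. In control cells 6 companion genes passed: Elovl5 (0.31, SE 0.07), Agpat3 (0.90, SE 0.17), Npc1, Lipa and Abcg1 (0.40, SE 0.10) rose and Slc25a1 fell (−0.33, SE 0.09). Of the 21 calls in sgStat5 cells 3 held without any 1 library, those of Elovl1, Agpat3 and Lipa, and of the 6 in control cells 1 did, that of Lipa. None of these genes passed edgeR without the block. Of the genes called with the block, DESeq2 also called Npc1 and Lipa in both kinds of cell. In sgStat5 cells alone it also called Acly, Elovl1, Elovl5, Agpat3 and Rnf145. Over all genes DESeq2 called 4.20% between control gates and 12.2% between sgStat5 gates.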

How the data were processed

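RNA of 8 sorted libraries was sequenced. The authors deposited whole-number read counts per gene and, in a second table, FPKM values, both with the annotation of the mouse build mm10. Tools listed by the submitters' processing notes are STAR 2.4.0, RSEM 1.2.25 and bcl2fastq 1.8.4. Which of them made which table was not given in the sources used here. Per the labels' protocols, the kit (NEBNext Ultra RNA) does not mark strand. No column of another sample was found.

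Deposited counts were tested with edgeR 4.0.16 (R 4.3.3): genes kept by filterByExpr, TMM scaling, 1 mean per group over all 8 libraries, a two-sided quasi-likelihood F-test, and Benjamini-Hochberg adjustment over 13775 genes within each comparison, at a threshold of 0.05. CPM values use TMM library sizes, and SE is the log2 fold change divided by the root of F. The second fit adds the replicate number as a block. The numbers come from the sample titles, and deviations of same-numbered libraries from their group means correlated at 0.421 to 0.578 over 6 pairs of groups. The common dispersion was 0.0853 without and 0.0178 with the block, with 4 and 3 residual degrees of freedom. DESeq2 1.42.0 on the counts and limma 3.58.1 on log2 of the FPKM values plus 1 were alternatives, as were other filters and leaving out each library. No interval was computed for single libraries, and counts without molecular identifiers give counting error only.

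The genes and lists were chosen with earlier results of these data known. Values in every library are given for genes called in any comparison with or without the block, the 5 of largest fold change in each sgStat5 comparison, and preset regulators and paralogs. Companion genes are named where they passed, at most 8 per list and comparison. A companion gene's result that was left out is not reported here. Start regions come from RefSeq on GRCm38.p6. The scripts were tested on simulated data.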

Additional observations from a re-analysis of the deposited data

How the results depend on the processing

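With the replicate block 7 of the 30 genes were called in the late guide comparison, 1 between gates in control cells and 6 between gates in sgStat5 cells, against 0, 0 and 0 without it. DESeq2 called 4, 0 and 3, and edgeR without a filter on low counts called 1 in the last. Over all genes, calls without the block, with it and by DESeq2 numbered 37, 321 and 247 for the early guide effect, 235, 1132 and 629 for the late one, 0, 0 and 2 for their difference, 2, 1507 and 578 between control gates, and 134, 3144 and 1684 between sgStat5 gates. When each library was left out in turn, which leaves 1 sample in a group that is assumed to vary like the others, the count with the block ran from 1 to 8 in the late guide comparison, from 0 to 2 between control gates and from 1 to 6 between sgStat5 gates, and without the block from 0 to 1 in the last. The median over the 30 genes then ran from −0.35 to −0.20 for the late guide effect, from −0.24 to −0.0748 for the difference of effects (−0.25 to −0.11 with the block), and from −0.19 to −0.11 between sgStat5 gates (−0.27 to −0.10 with the block). With the block the early median ran from −0.19 to −0.0446. The control gate median changed sign, from −0.021 to 0.12 (−0.030 to 0.14 with the block), below 0 without early control replicate 2 (−0.000314) or late control replicate 1, and with the block only without the latter. The median difference of effects was −0.15 with DESeq2 or its size factors, −0.13 without a filter, −0.12 at a CPM of at least 5, and −0.10, −0.11 and −0.10 on FPKM (pseudocount 1, 0.1, and 1 with a minimum of 1). Outside left-out libraries, 33 values of 10 genes without a call changed sign, and with or without them 0 of the genes called with the block did. The cause of these changes was not tested. The lowest count of any of the 30 genes in a library was 243, and with 2 libraries per group the spread between replicates limits every test.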
